A study of Mus musculus with 49 samples.

Results

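Haploid embryonic stem cells that the authors' table assigned to late-S/G2, the last stretch of DNA replication and the gap before mitosis, numbered 340 of the 1247 haploid cells that passed the authors' quality control and of 4098 passing cells in the series. The members were all haploid cells with the quality flag set and the group late-S/G2, and they filled positions 887 to 1226 of the authors' cell-cycle order. They were thus selected on measured values, since the authors' groups and order track the short-range share of contacts and a replication score, as described below; how the groups were drawn is not given in the sources used here. Each cell was a separate single-cell Hi-C library, an assay that records which pieces of DNA lay next to each other in 1 nucleus, and the table summarised its contacts in 11 folding measures and 4 quality measures. The cells were of the haploid mouse line H129-1, which its label also calls a hybrid, and the table named 3 conditions for them. Serum_G1/S cells, of which 109 were in late-S/G2, were grown with fetal bovine serum on feeder cells. 2i_G1 cells, of which 7 were in late-S/G2, and 2i_all cells, of which 224 were, were grown in 2i medium without feeders. Cultures on feeders were depleted of feeder cells and sorted for the stem cell marker Oct-3/4. The names imply a sort of the first 2 conditions by cycle stage and none of 2i_all. The effects of medium, feeders, marker sort and stage sort between serum and 2i_all cells thus cannot be told apart. A difference between media below stands for all of these together. The comparison line was a diploid hybrid of the 129/SV-Jae and castaneus strains, with 322 late-S/G2 cells in serum and 649 in 2i. Its serum libraries with at least 10 such cells were of the conditions 1CDS1 and 1CDS2. Its 2i libraries were 1 of 1CDU, 4 NoSort, 4 named for 1 sorted stage (1CD_mS and 1CD_lS_G2) and 1 that joined 3 sorted stages, so in 2i 5 of 10 diploid libraries were named for sorted stages, and the name 2i_all gives no sort. Every haploid cell came from this 1 line, and the labels do not say that libraries came from separate cultures, so p-values measure the spread between these libraries.

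Chromosomes change shape through the cell cycle. During S phase each region is copied at its own time, gene-rich early-replicating DNA before late-replicating DNA, and contacts over short distances gain ground until the chromosomes are packed for mitosis. The active and inactive parts of the genome separate into A and B compartments, neighbouring domains are insulated from each other at their borders, and loops join distant anchor sites. The replication score follows the copying of early-replicating DNA by its share of the reads, so in general it climbs while that DNA is copied and falls back once late-replicating DNA has been copied too.

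Members carried a median of 75876 contacts, with a range of 10968 to 694428, and 35421833 contacts in all. Libraries are named here by the number in their title. Of 20 haploid libraries, 17 held members and 9 held at least 10, which gave 312 of the members and the library means below. These were haploid 17, 18, 19 and 20 in serum, with 22 to 29 members each, and haploid 1, 3, 6, 7 and 8 in 2i_all, with 24 to 55. No 2i_G1 library held 10. Each cell name occurred in 1 library and no cell's values were repeated. Depth and condition went together: mean contacts per cell were 125911 to 262986 in the 4 serum libraries and 28006 to 92045 in the 5 libraries in 2i, with no overlap.

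The label was checked against the sort that the condition names give. In serum, 18.8% of passing cells were late-S/G2 (109 of 581, exact 95% interval 15.7% to 22.2%). In the G1-named 2i condition the share was 2.58% (7 of 271, 1.04% to 5.25%), and in 2i_all it was 56.7% (224 of 395, 51.7% to 61.7%). These intervals cover counting error only. By library with at least 10 passing cells, the share averaged 21.1% ± 5.64 in serum (SD, n = 5), 2.09% ± 1.51 in 2i_G1 (n = 5) and 55.2% ± 6.70 in 2i_all (n = 6). The 3 conditions did not overlap: serum libraries lay between 15.2% and 30.0%, 2i_G1 libraries at or under 4.11%, and 2i_all libraries between 47.4% and 64.7%. In 2i_G1, haploid 10 had 0 of 14 cells, which allows a share of up to 23.2% by the exact 95% interval. Exact two-sided permutation of library labels gave an adjusted p of 0.00325 for 2i_G1 against 2i_all and for serum against 2i_all, and of 0.00794 for serum against 2i_G1, over 3 comparisons; each was the smallest its design allowed before adjustment. The G1-named sort thus held few of the cells called late-S/G2, in 4 of its 5 libraries. Of its 271 passing cells, however, 139 were called G1 and 125 early-S, so its name and the authors' groups did not match throughout. The serum condition, named for G1/S, still gave 109 late-S/G2 cells.

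**Figure D1:**
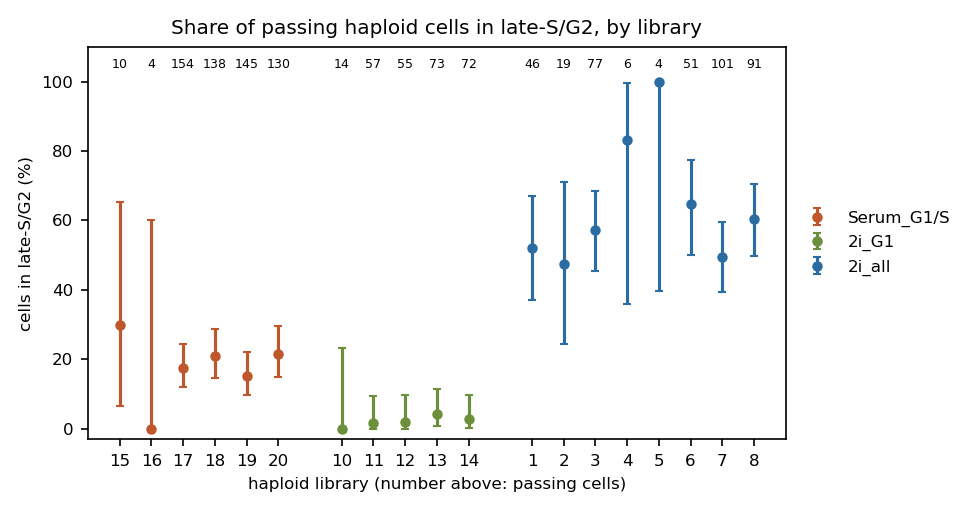
Share of passing haploid cells called late-S/G2 (y axis, percent) in each library (x axis, library number), with exact 95% binomial intervals as bars and the number of passing cells above. Serum_G1/S and 2i_G1 libraries of at least 10 cells lie at or under 30.0%, and 2i_all libraries of that size lie at or above 47.4%.

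The values that go with a cell's place in the group are a description here. Over the 340 members, the order followed the short-range share minus the replication score, each standardised over these cells, with a Spearman correlation of 0.987. The short-range share alone reached 0.864 and the replication score alone -0.672. In early-S, the group before it, the order followed the sum of the same 2 measures (1.00 over 559 cells). The replication score thus counted in opposite directions on the 2 sides of the boundary, and a fall of the score along the order within late-S/G2 is part of how the order was built. At the boundary the 5 first late-S/G2 cells had a median replication score of 1.451 and a median short-range share of 77.1%, against 1.453 and 77.2% in the 5 last early-S cells. At the other end the 5 last late-S/G2 cells had a median short-range share of 89.0% and a median mid-range share of 5.58%, against 80.6% and 11.6% in the 5 first pre-M cells. Short-range shares of the 2 S groups overlapped between 73.4% and 79.5%, where 94 late-S/G2 and 121 early-S cells lay.

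Short-range contacts made up most of what was recorded. The short-range band, whose limits the sources used here do not give, held 73.4% to 90.4% of a member's contacts, with a median of 81.7%. The mid-range band, which the table names for mitosis because condensed chromosomes are rich in it, held 3.96% to 11.9%, with a median of 8.11%. The mean distance of far contacts was 19.1 to 34.9 Mb, with a median of 26.3 Mb. Contacts between different chromosomes took 2.10% to 18.5% of the total, with a median of 5.53%. The highest share lay far above the upper quartile of 7.26%.

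The structural scores spread less evenly. Mean insulation at domain borders ran from 1.91 to 2.81, with a median of 2.17 on the authors' scale. The compartment score within chromosomes, which measures how far contacts keep to their own compartment, had a median of 0.416 (0.139 to 0.682). Between chromosomes it had a median of 0.273 (0.0687 to 0.567). The alignment score between chromosomes had a median of 0.290 and reached down to -0.0084. Enrichment of loops between early-replicating anchors, called EE here as in the table, had a median of 0.98 on the log2 scale, and loops between late-replicating anchors, LL, had a median of 1.17. LL exceeded EE in the library means of 8 of 9 libraries. Loop values were coarse: 278 of 340 cells shared their LL value with another cell, 31 of them at 1.58, and 186 shared their EE value. The 170 cells of lower depth had an SD of 0.79 for LL and 0.58 for EE, against 0.60 and 0.30 in the 170 cells of higher depth. The means also differed by depth, with 1.42 for LL and 1.01 for EE in the cells of lower depth, against 1.01 and 0.90 in those of higher depth, so LL exceeded EE by less in the deeper cells.

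In the folding measures, single cells of 1 library spread more widely than the 9 library means did. A library mean averages over many cells, which by itself narrows the spread of means. The ratios below thus do not weigh differences between cells against differences between libraries. For 10 of the 11 folding measures the SD over cells within a library was 2.25 to 7.12 times the SD over the 9 library means; these include far distance at 7.12 times, insulation at 5.49 times and the replication score at 4.68 times. The short-range share was at 2.25 times, with 14.5% of the variance over these cells lying between libraries. The mid-range share, at 3.08 times, had 8.17% there. The exception was the share of contacts between chromosomes, with a within-library SD of 2.00 points against 1.85 points over libraries, and 44.3% of its variance between libraries. Depth behaved in the same way, with 50.3% between libraries, and so did the share of undigested fragments, with 66.6%.

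Along the order within the group, short-range contacts gained and contacts between chromosomes lost ground in every library. In 10 successive bins of 34 cells, the short-range share averaged 77.0% ± 1.49 in bin 1 and 86.8% in bin 10 (SD over cells). The share of contacts between chromosomes averaged 9.29% ± 3.51 in bin 1 and 4.10% in bin 10, and it was lower in each bin than in the one before. The mid-range share averaged 9.66% in bin 1 and 6.48% in bin 10, and the mean distance of far contacts 28.9 Mb and 24.8 Mb. Within libraries, Spearman's rho with the order was positive for the short-range share in 9 of 9 libraries (0.755 to 0.920). It was negative in 9 of 9 for the share of contacts between chromosomes (-0.834 to -0.394), the mid-range share (-0.764 to -0.409), far distance (-0.674 to -0.048) and the replication score (-0.852 to -0.536). These are descriptions with no test, since the order comes from the same contacts. They also share libraries: serum cells, which have more contacts between chromosomes, made up 19 of 34 cells in bin 1 and 3 of 34 in bin 10.

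The other measures had no single direction along the order. Insulation was highest in bin 3, at 2.25, and lowest in bin 9, at 2.13, and its rho was negative in 7 of 9 libraries (-0.424 to 0.295). The compartment score within chromosomes had a positive rho in 6 of 9 libraries, with 0.403 in bin 1 and 0.428 in bin 10. The compartment score between chromosomes was 0.275 in bin 1 and 0.274 in bin 10, with signs split 4 to 5. EE loops had a positive rho in 6 of 9 libraries and LL loops in 5 of 9. With each library's cells in 3 equal parts of the order, the final part minus the early part gave a mean of 0.05 ± 0.23 for EE and -0.07 ± 0.35 for LL on the log2 scale (SD over 9 libraries), so loop enrichment did not move beyond its spread between libraries. No loop, compartment, alignment or insulation score had the same sign of rho in all 9 libraries.

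**Figure D2:**
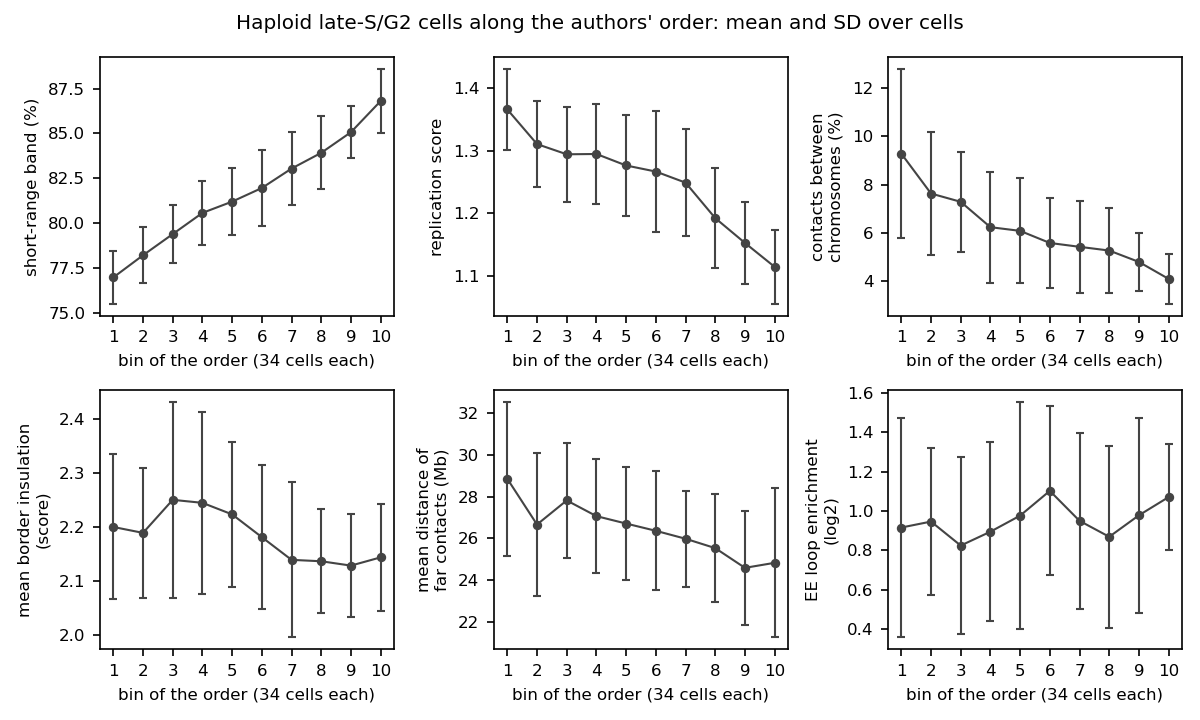
Means of 6 measures over 10 successive bins of the haploid late-S/G2 cells in the authors' order (x axis, 34 cells each), with the SD over cells as bars. The short-range share rises to 86.8%, while the replication score, the share of contacts between chromosomes and the far distance come down, and EE loop enrichment has no single direction.

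The replication score fell back within the group. Its mean was 1.37 ± 0.065 in bin 1 and 1.11 in bin 10 (SD over cells), and it was lower in each bin than in the one before except from bin 3, at 1.294, to bin 4, at 1.295. With each medium's cells in 3 equal parts, it averaged 1.32 ± 0.067 in serum and 1.32 ± 0.083 in 2i_all in the early part. In the final part it averaged 1.15 ± 0.076 in serum and 1.16 ± 0.077 in 2i_all. Cells in G1, before replication, had 1.09 ± 0.036 in serum (147 cells) and 1.09 ± 0.065 in 2i_all (38 cells). Cells called pre-M, which follow, had 1.08 ± 0.026 in serum (10 cells) and 1.10 ± 0.065 in 2i_all (11 cells). The final part thus averaged between the early part and the G1 level in both media. The very end lay lower: the 5 last late-S/G2 cells had a median of 1.068 (1.034 to 1.185), against a G1 mean of 1.09 in both media.

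Set against the range of G1 cells, 30 of 109 serum cells (27.5%) and 87 of 224 2i_all cells (38.8%) had a score at or under the 95th percentile of G1 cells in their own condition. That percentile was 1.16 in serum and 1.22 in 2i_all. It came from 147 G1 cells with an SD of 0.036 in serum and from 38 with an SD of 0.065 in 2i_all. Counts against it thus do not compare the media, whose members had mean scores of 1.247 in serum and 1.251 in 2i_all. In the early part of the order 1 of 36 serum cells and 13 of 74 2i_all cells were this low, and in the final part 24 of 36 serum cells and 57 of 74 2i_all cells were. Since the order itself counts the score downward here, the fall was also read along the short-range share alone. In 10 bins of that share the replication score stayed between 1.25 and 1.30 up to bin 6, where the share averaged 82.3%, and was 1.23, 1.23, 1.22 and 1.19 in bins 7 to 10. Within libraries the 2 measures correlated negatively in 9 of 9 (rho -0.521 to -0.065). Membership of the group tracks both measures too, so this reading is not free of the selection and is a description with no test. The fall along the short-range share was thus smaller than along the order, with 1.28 in bin 1 and 1.19 in bin 10 of the share and 1.37 and 1.11 in the same bins of the order.

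**Figure D3:**
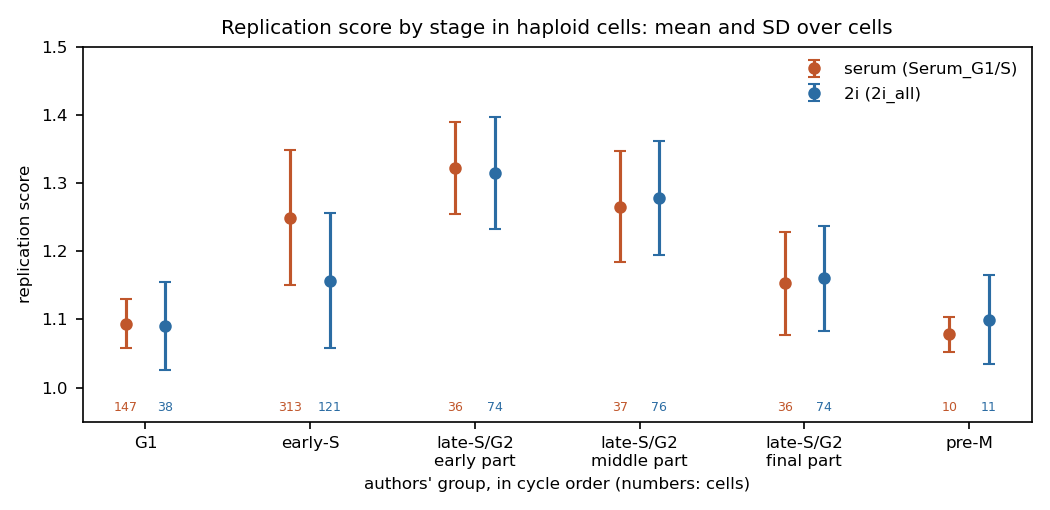
Mean replication score (y axis) by the authors' groups in cycle order (x axis), with late-S/G2 split into 3 equal parts of the order, in serum and in 2i_all, with the SD over cells as bars and cell numbers below. The early part of late-S/G2 averages 1.32 in both media and the final part lies near 1.16, above G1 at 1.09; early-S is drawn whole, and its 5 last cells had a median of 1.453.

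Among members of 1 library, far distance and the alignment score between chromosomes went against each other in 9 of 9 libraries (rho -0.787 to -0.342). Cells with more distant far contacts also had more contacts between chromosomes in 9 of 9 (0.173 to 0.483) and a higher replication score in 9 of 9 (0.004 to 0.519). The 2 compartment scores correlated positively in 9 of 9 (0.121 to 0.622). Insulation and the replication score had only weak rho values (-0.090 to 0.156). EE and LL loop enrichment were weakly related (-0.027 to 0.352). Depth also moved with some measures: rho with contacts was negative in 8 of 9 libraries for EE loops (-0.377 to 0.030), LL loops (-0.639 to 0.010) and the replication score (-0.660 to 0.172). In all, 20 pairs were computed, each over the cells of a library, which share their library and its depth, and no test was made. Far distance, contacts between chromosomes and the replication score also each went down along the order in 9 of 9 libraries. The part of that shared course in these pairs was not tested.

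Serum cells in late-S/G2 had more contacts between chromosomes than 2i cells. The share was 8.64%, 8.21%, 8.08% and 9.04% in haploid 17, 18, 19 and 20 in serum, against 5.93%, 5.69%, 5.43%, 4.34% and 4.41% in haploid 1, 3, 6, 7 and 8 in 2i. Every serum library lay above every 2i library, and among the 2i libraries haploid 7 and 8 were the lowest. The mean was 8.49% ± 0.438 in serum (SD, n = 4) and 5.16% ± 0.740 in 2i (n = 5), a difference of 3.33 points and a ratio of 1.65 (exact two-sided permutation of library labels, adjusted p = 0.0298 over 15 measures). With 126 regroupings the smallest p this design allows is 0.00794 before adjustment. Of the 15 measures, 4 passed the threshold of 0.05 (26.7%): this share, contacts per cell, the short-range share and the mid-range share. The last 2 go with a cell's place along the cycle, and each was at that smallest p. The adjustment counted them, so the adjusted p of the other measures depend on them. The gap in contacts between chromosomes was not limited to late-S/G2. Over pooled cells, the share averaged 8.26% in serum and 5.01% in 2i_all in G1. It was 11.02% and 6.06% in early-S, and 8.48% and 5.03% in late-S/G2. In pre-M it was 2.93% in serum (10 cells) and 2.65% in 2i_all (11 cells). In post-M it was 4.39% (2 cells) and 5.94% (1 cell). These values are given with no test.

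The short-range share was lower in serum, at 79.5%, 79.6%, 80.8% and 80.2%, against 82.6%, 82.8%, 82.4%, 82.3% and 82.9% in 2i. The mid-range share was higher in serum, at 8.70% ± 0.294, against 7.93% ± 0.085 in 2i. Libraries of the 2 media did not overlap in either share. Both go with a cell's place along the cycle, so they are given with no p of their own. The mean number of contacts per cell was 181593 ± 59753 in serum and 63239 ± 25704 in 2i, 2.87 times as many (adjusted p = 0.0298, exact permutation), and depth thus moved with the other differences. In cells between the 25th and 75th percentile of contacts the gain in contacts between chromosomes was 2.20 points, with 2 serum and 4 2i libraries left and no call possible. Any 1 of the 9 libraries left out ended all 4 calls, at adjusted p of 0.0612 to 0.0857 by exact permutation, with a difference of 3.13 to 3.53 points in contacts between chromosomes.

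Serum cells also lay earlier in the order: 66.1% of them were in its earlier 170 positions, against 41.5% of 2i_all cells. Matched on 3 equal parts of the order, a setting chosen after the data were seen, the mean over the parts was 7.96% in serum and 5.27% in 2i for contacts between chromosomes, a difference of 2.70 points with no overlap (adjusted p = 0.0238, exact permutation). The difference was 3.56, 2.83 and 1.71 points in the early, middle and final part, so the media were closest at the end. Matching cut the difference in short-range share to -1.35 points, against -2.56 unmatched. The replication score was 1.217 in serum and 1.262 in 2i when matched, with no overlap, and 1.245 and 1.254 unmatched, with overlap. The order follows the short-range share minus this score, so matching on the order ties these 2 measures together. The matched gap in score is thus not separate from the gap in short-range share. Both were counted in the adjustment, so the matched adjusted p for contacts between chromosomes depends on them too.

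Compartment scores tended higher and EE loops lower in serum without passing the threshold. The compartment score within chromosomes was 0.437 ± 0.022 in serum and 0.398 ± 0.019 in 2i, and between chromosomes 0.292 ± 0.009 and 0.259 ± 0.022 (adjusted p = 0.0680 each, exact permutation). Libraries of the 2 media did not overlap in the second of these, from 0.285 upward in serum and up to 0.280 in 2i. EE loop enrichment was 0.85 ± 0.08 in serum and 1.01 ± 0.09 in 2i on the log2 scale, a difference of -0.16 (adjusted p = 0.0680, exact permutation). In cells between the 25th and 75th percentile of contacts, which left 2 serum and 4 2i libraries and a remaining gap of 13404 contacts per cell, that difference was -0.02. LL enrichment was 1.18 ± 0.16 in serum and 1.23 ± 0.26 in 2i. Insulation was 2.182 ± 0.017 in serum and 2.184 ± 0.033 in 2i, and far distance 26.4 ± 0.414 Mb in serum and 26.5 ± 0.503 Mb in 2i; both differences were smaller than the spread between libraries.

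**Figure D4:**
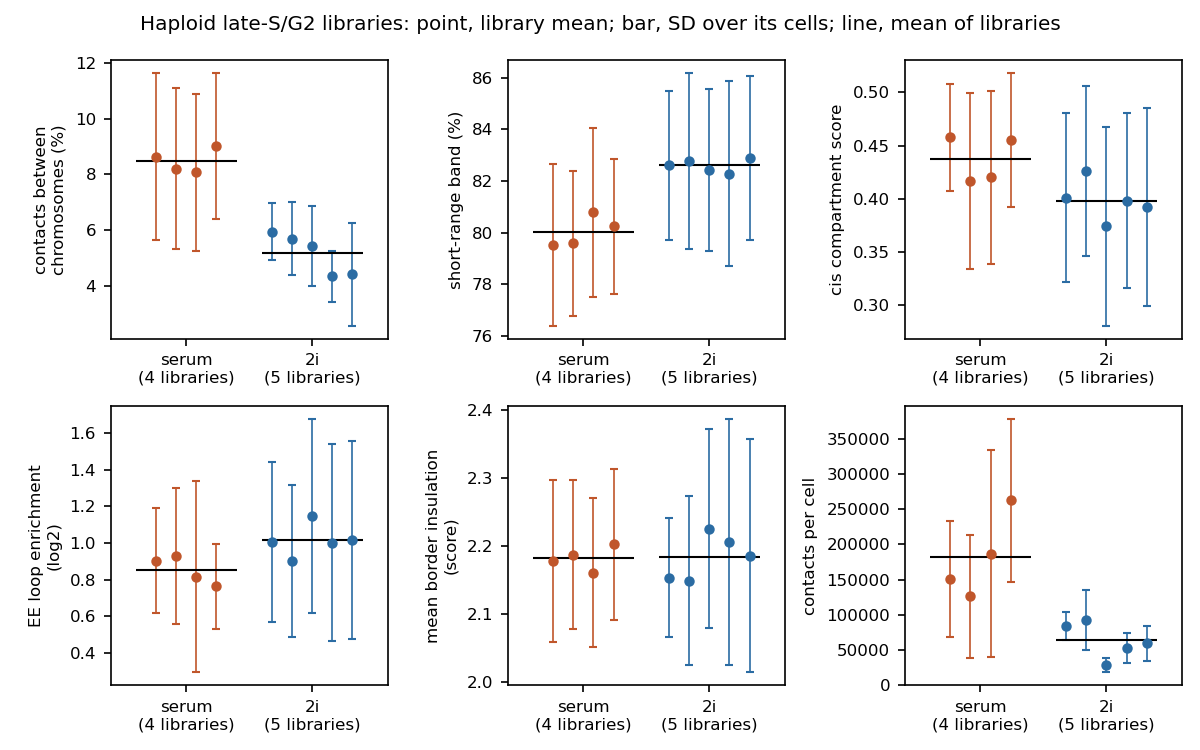
Mean of the late-S/G2 cells of each haploid library for 6 measures, with the SD over its cells as bars and the mean of libraries as black lines, in serum and in 2i. The media do not overlap in contacts between chromosomes, short-range share or contacts per cell, and overlap in insulation, EE loops and the compartment score within chromosomes.

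No measure's spread between cells of a library passed the test between media. Of 15 measures 0 passed (0.0%), with 5 at an unadjusted p under 0.05 and a lowest adjusted p of 0.0595 (exact permutation of library labels on log2 SD). The SD of the share of contacts between chromosomes was 2.62 to 2.99 points in serum libraries and 0.920 to 1.86 points in 2i libraries, 2.22 times as large in serum with no overlap (adjusted p = 0.0794, exact permutation). The mean of that share was also higher in serum. EE loops ran the other way, with an SD 0.689 times that of 2i, and LL loops with 0.705 times, in the deeper serum libraries. The replication score had a mean SD of 0.1004 in serum and 0.1006 in 2i.

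The 7 late-S/G2 cells of the G1-named 2i condition were few and lay early, 5 of them in bin 1 of the order. They had a short-range share of 75.4% to 80.8% and a replication score of 1.08 to 1.453, with a median of 1.39. The mean of their 4 libraries was 77.9% for the short-range share, against 82.8% over the 8 2i_all libraries. For contacts between chromosomes it was 6.82% in 2i_G1 and 5.24% in 2i_all. With 1 to 3 cells a library, these values describe the cells and no comparison of the gates is made.

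Against early-S cells of the same 9 libraries, 420 cells, late-S/G2 cells had more short-range contacts, lower insulation and higher compartment scores in 9 of 9 libraries. The short-range share was 81.5% in late-S/G2 and 69.8% in early-S, and the mid-range share 8.27% and 11.9%. Contacts between chromosomes averaged 6.64% in late-S/G2 and 8.38% in early-S, lower in 9 of 9 libraries. Insulation was 2.18 in late-S/G2 and 2.40 in early-S, a difference of -0.214 ± 0.058 (SD over libraries). The compartment score within chromosomes was higher by 0.039 ± 0.022, and between chromosomes by 0.044 ± 0.018. EE loops differed by -0.07 ± 0.06 on the log2 scale, lower in 8 of 9, and LL loops by -0.05 ± 0.16, lower in 6 of 9. The contrast defines the group, so it is described with no test.

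Spread between cells is given with no test, since the group covers its own stretch of the order. The short-range share ran over 73.4% to 90.4% in late-S/G2 and 57.5% to 79.5% in early-S, and its SD over cells was 0.642 times that of early-S, which goes with that narrower range. For contacts between chromosomes the SD was 0.713 times that of early-S, smaller in 8 of 9 libraries. The compartment score within chromosomes was the other way, at 1.13 times and larger in 8 of 9. The replication score was spread about as widely, at 1.04 times.

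The step from early-S differed between media. Contacts between chromosomes changed by -2.56 ± 0.333 points in serum libraries and by -1.09 ± 0.398 points in 2i libraries. Insulation changed by -0.156 ± 0.026 in serum and by -0.260 ± 0.015 in 2i. The authors' score of uneven chromosome coverage changed by -0.142 ± 0.086 in serum and by 0.003 ± 0.037 in 2i. Each of these steps had no overlap between media (adjusted p = 0.0298, exact permutation of library labels, a test chosen after the data were seen, in which 26.7% of 15 measures passed). Any 1 library left out ended these 3 calls, at adjusted p of 0.0670 to 0.107 by exact permutation, and so did library medians, at 0.0595. With a library left out, the fewer regroupings made that loss close to fixed by the design, as for the levels above. The adjustment also counted the replication score, which was at the smallest p too, so these adjusted p depend on it. The replication score, which goes with the order of the groups and is given with no p, changed by -0.005 ± 0.039 in serum, up in 2 of 4 libraries, and by 0.097 ± 0.042 in 2i, up in 5 of 5. Early-S cells of serum had a mean score of 1.25 and those of 2i_all a mean of 1.16, and serum cells lay earlier within late-S/G2; the part of either in these steps was not tested.

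Set against diploid late-S/G2 cells, haploid cells had far contacts over longer distances in both media. In serum the mean distance was 26.9, 26.5, 26.4 and 25.9 Mb in the 4 haploid libraries, against 22.8 to 24.4 Mb in 7 diploid libraries, with no overlap. The means were 26.4 ± 0.414 Mb (SD, n = 4) in haploid and 23.8 ± 0.661 Mb (n = 7) in diploid cells, a difference of 2.67 Mb (exact permutation of library labels, adjusted p = 0.00707 over 7 measures). In 2i the mean was 26.5 ± 0.503 Mb in 5 haploid and 25.2 ± 0.957 Mb in 10 diploid libraries, a difference of 1.34 Mb with overlapping libraries (exact permutation, adjusted p = 0.0251). Leaving out haploid 1 or haploid 6 ended the call in 2i, at 1.16 and 1.27 Mb with adjusted p of 0.0717 and 0.0524 by exact permutation. A minimum of 5 cells per library cut the difference in 2i to 0.249 Mb (adjusted p = 0.700, exact permutation). Only measures with a unit of their own were compared, since the scores' scales may differ between tables.

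Contacts between chromosomes differed between the lines in serum. The share was 8.49% ± 0.438 in haploid and 6.16% ± 0.362 in diploid serum libraries, a difference of 2.33 points with no overlap (adjusted p = 0.00707, exact permutation). In 2i it was 5.16% ± 0.740 in haploid and 5.31% ± 1.37 in diploid libraries, which overlapped (adjusted p = 0.845, exact permutation). Against the 4 NoSort diploid libraries alone, a setting chosen after the data were seen, the difference turned to 0.839 points, with 5.16% in haploid and 4.32% in diploid libraries, which overlapped (adjusted p = 0.130, exact permutation). In that setting undigested fragments were at 33.2% in haploid and 48.8% in diploid libraries with no overlap (adjusted p = 0.0111, exact permutation), and far distance was higher in haploid cells by 1.72 Mb with no overlap (adjusted p = 0.0111, exact permutation). Of the 7 measures, 4 passed in serum (57.1%) and 4 in 2i (57.1%), including quality measures in both. In serum, haploid cells had 25.5% of undigested fragments and diploid cells 32.2%, and 1.82% and 2.97% of duplicated fragment ends. In 2i, haploid cells had 63239 contacts each and diploid cells 223734, and duplicated ends were at 1.32% and 4.08%. The mid-range share in 2i was 7.93% ± 0.085 in haploid and 8.33% ± 0.217 in diploid libraries with no overlap, and is given with no p because it goes with the groups of each table. It was 1 of the 4 that passed in 2i and was counted in the adjustment, so the other adjusted p in 2i depend on it. Line, depth and digestion moved together here. The haploid serum condition was also named for a sort by cycle stage, and its members lay early in late-S/G2. Far distance and contacts between chromosomes went down along that order in 9 of 9 haploid libraries. The short-range share was 80.0% in haploid and 81.3% in diploid serum libraries, which overlapped. The parts of line, depth, digestion, sort and place along the cycle were not tested.

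**Figure D5:**
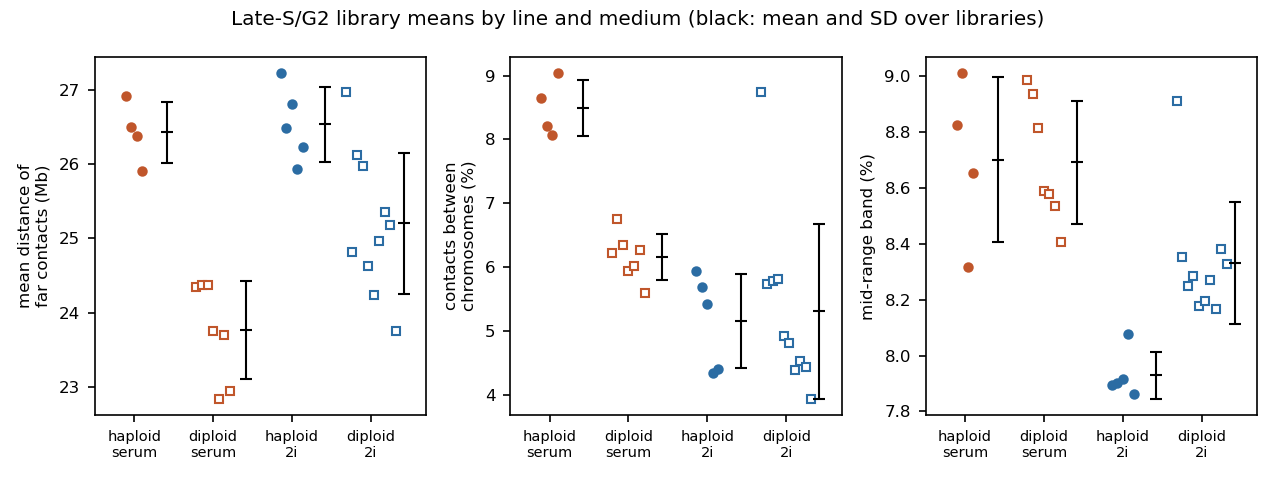
Late-S/G2 library means of far distance (Mb), contacts between chromosomes (%) and mid-range share (%) in haploid and diploid libraries, in serum and in 2i, with the mean and SD over libraries in black. Haploid serum libraries lie above all diploid serum libraries in far distance and in contacts between chromosomes, and haploid 2i libraries lie under all diploid 2i libraries in mid-range share.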

How the data were processed

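Single-cell Hi-C libraries of haploid and diploid mouse embryonic stem cells were used through the authors' tables of 1 row per cell; 4 nuclear RNA samples were not analysed here. Reads were aligned with Bowtie2 to mm9, per the submitters' processing notes. The deposited values are counts of contacts per cell, fractions of a cell's contacts (shown as percent), scores on scales that the file headers do not define, distances (shown in Mb), and loop enrichments that the authors deposited with no base named, read here as log2 because the commonest values are logs of small whole-number ratios to that base. Band limits and denominators are not given in the sources used here. No column belonged to another series (0 columns).

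Cells with the quality flag set were averaged per library, with at least 10 late-S/G2 cells, and library means were compared by exact two-sided permutation of library labels with Benjamini-Hochberg adjustment at 0.05 (Python 3.11.15, numpy 2.4.6, pandas 2.3.3, scipy 1.17.1). The test was checked on simulated data. Cells were not replicates. Libraries paired through no shared number. Members, measures and comparisons were chosen with earlier results of these data known. The tables list cells and not genes, so every folding measure is described and no gene is named. The 2i_G1 comparison had no library of 10 cells and is given as values. Alternatives were other minimums (5 and 20 cells), medians, cells of middle depth, each library left out, position along the order, and unsorted diploid libraries.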

Additional observations from a re-analysis of the deposited data

Results flagged for a closer look

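Haploid 7 stood apart among the 5 libraries in 2i in the mid-range share of its late-S/G2 cells, at 8.08%, where the other libraries had 7.86% to 7.92%. It was 1 of 30 groups of libraries tested for a sample far from the rest, and chance gives about 1 in 20. Its cell number, 50, was the second largest.

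The step from early-S to late-S/G2 differed between serum and 2i in 3 measures, by a test of the difference itself (exact permutation of library labels, adjusted p = 0.0298 each). The difference of the steps, serum minus 2i, was -1.47 points for contacts between chromosomes, 0.103 for insulation and -0.145 for uneven chromosome coverage. For the replication score, which the groups and the order track, it was -0.102 and is a description with no p. The adjustment counted this score as well, so the adjusted p of the other 3 measures depend on it. The tested measures are not free of the grouping either: within late-S/G2, contacts between chromosomes went down along the order and against the short-range share in 9 of 9 libraries. Contacts between chromosomes and insulation were lower in late-S/G2 than in early-S in 9 of 9 libraries. The replication score was higher in 5 of 5 libraries in 2i and in 2 of 4 in serum. Uneven coverage was lower in 4 of 4 serum libraries and higher in 3 of 5 in 2i.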

How the results depend on the processing

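No paired analysis was possible because the haploid and diploid libraries compared share no replicate number, and within the haploid line each library has 1 number and 1 medium.

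For serum minus 2i, the count of 4 measures that passed was 0 in cells between the 25th and 75th percentile of contacts (2 serum and 4 2i libraries), 7 with at least 1 cell per library (chosen after the data were seen), and 0 with any library left out, where 56 or 70 regroupings remain. The differences in contacts between chromosomes kept their direction in all these settings. No value could be had from 2i_G1 libraries alone. For haploid minus diploid cells, the count of 4 measures was 2 in 2i and 7 in serum in cells of middle depth, and 3 to 4 in 2i and 4 to 6 in serum with a library left out. The difference in far distance in 2i was 0.755 Mb at middle depth. For the spread between cells, the count was 3 rather than 0 with at least 5 cells, for contacts between chromosomes, contacts per cell and duplicated ends. For the step from early-S between media, the count of 4 was 0 with at least 20 cells, with medians, at middle depth, and with any library left out. The counts of measures with 1 direction in all libraries, 6 for late-S/G2 against early-S and 5 along the order, stayed within 1.5 times under every alternative run. The 3 comparisons of the late-S/G2 share passed in all settings run. No called value reversed. The spread of loop values was larger in cells of lower depth, and with 4 serum libraries the smallest p was 0.00794.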
